A study of Mus musculus with 4 samples.

Results

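The Hox genes encode homeodomain transcription factors that lie in 4 clusters, HoxA, HoxB, HoxC and HoxD. They were taken as every non-control probe named by its cluster letter and paralog number in the scanner files, which gave 50 of 41174 probes and 38 genes, 12 of them with 2 probes. GDF8 (myostatin) is a TGF-beta family ligand that limits skeletal muscle growth. The cells were C2C12, a mouse myoblast line derived from adult leg muscle that forms multinucleated myotubes when serum is lowered. The GDF8 group had 20 nM recombinant mouse GDF8 added every 24 h over 6 days of differentiation, and the untreated group differentiated for the same 6 days with no addition. Both groups were first grown in 10% fetal bovine serum. For the differentiation medium the labels disagree, with 2% horse serum in the growth protocol and 10% in the source names. Each of the 4 two-colour Agilent arrays held 1 GDF8 and 1 untreated RNA. Replicates 2 and 3 carried GDF8 in Cy5, and replicates 1 and 4 carried it in Cy3. The labels call the arrays biological replicates and do not say how the cultures were kept apart, so the tests measure the spread between these arrays, which may be technical. A single cell line was used, so nothing here covers the spread between lines or animals.

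Within a cluster, the genes are numbered from 1 to 13 by their relation to each other, and genes of different clusters with the same number are paralogs. Low numbers (anterior genes) are known for patterning the hindbrain and neck, and high numbers (posterior genes) for the lower trunk, limbs and tail. Cells of adult tissues keep part of the Hox expression of the body region they come from. Polycomb complexes hold unused parts of a cluster silent, Trithorax group proteins keep used parts active, and Pbx and Meis proteins bind DNA together with Hox proteins.

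Detection of the Hox genes differed by cluster. All 11 HoxA genes were well above background in all 8 channels (4 arrays of GDF8 and 4 of untreated cells), as were 7 of 8 HoxC genes, 5 of 10 HoxB genes and 0 of 9 HoxD genes. Well above background is the scanner software's flag for a spot brighter than its local background, and a gene with 2 probes is given by the probe flagged in more channels. In total, 23 of the 38 genes were flagged in all 8 channels, and 6 in none. By probe, 29 of 50 were flagged in all 8 channels, where 61.4% of all probes were, and 9 of 50 in none, where 17.8% of all probes were. The Hox probes as a whole were thus flagged about as often as any probe on the array, and the clusters differed within that. These counts are a description with no test. Genes of the clusters that have no probe among the 50 were not analysed here.

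**Figure D1:**
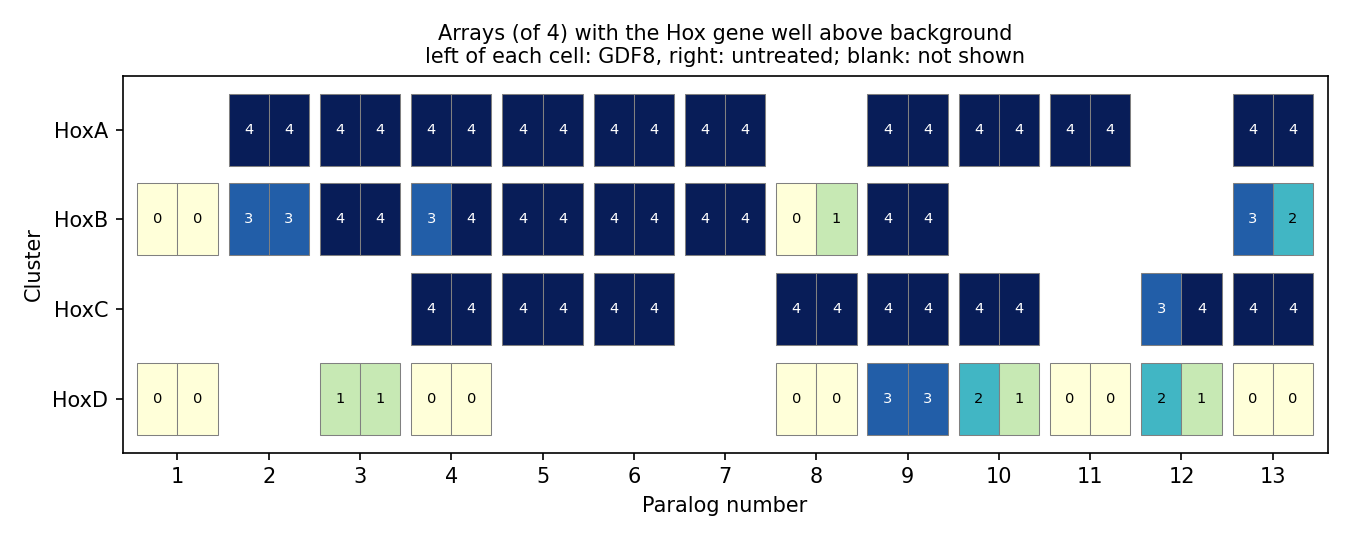
Number of arrays (of 4) on which each Hox gene was well above background, with GDF8 cells on the left of each cell and untreated cells on the right. Rows are clusters and columns are paralog numbers. Each HoxA gene shown has 4 in both conditions, and no HoxD gene reaches 4 in either condition.

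The 6 promoters printed here show 3 paralog numbers at which a HoxA or HoxC gene was flagged in all 8 channels and its HoxD paralog was not. Each runs from 250 bases before to 50 bases after the gene's start, 5′ to 3′ on the gene's strand, from RefSeq with build GRCm38.p6. Capitals mark CG dinucleotides, the sites of DNA methylation in mammals.
Hoxa9, chr6:52227321-52227620 (- strand): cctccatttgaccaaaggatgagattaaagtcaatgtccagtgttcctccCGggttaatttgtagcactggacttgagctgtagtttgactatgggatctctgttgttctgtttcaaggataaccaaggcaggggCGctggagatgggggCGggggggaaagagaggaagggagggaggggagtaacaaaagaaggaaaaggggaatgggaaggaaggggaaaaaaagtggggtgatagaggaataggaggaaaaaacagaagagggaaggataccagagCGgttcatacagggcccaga
Hoxd9, chr2:74697513-74697812 (+ strand): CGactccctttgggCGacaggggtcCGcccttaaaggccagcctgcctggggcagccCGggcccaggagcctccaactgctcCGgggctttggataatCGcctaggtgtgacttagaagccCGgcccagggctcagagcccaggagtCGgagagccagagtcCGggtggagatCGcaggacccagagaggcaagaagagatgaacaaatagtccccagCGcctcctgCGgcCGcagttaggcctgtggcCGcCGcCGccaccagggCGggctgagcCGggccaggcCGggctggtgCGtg
Hoxa13, chr6:52260831-52261130 (- strand): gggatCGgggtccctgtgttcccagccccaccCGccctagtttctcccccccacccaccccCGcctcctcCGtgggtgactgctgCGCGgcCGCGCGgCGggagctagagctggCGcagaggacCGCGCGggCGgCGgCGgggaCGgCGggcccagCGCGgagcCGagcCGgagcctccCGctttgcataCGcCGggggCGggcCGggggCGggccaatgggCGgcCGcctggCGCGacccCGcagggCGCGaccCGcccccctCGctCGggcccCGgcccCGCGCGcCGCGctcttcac
Hoxd13, chr2:74667975-74668274 (+ strand): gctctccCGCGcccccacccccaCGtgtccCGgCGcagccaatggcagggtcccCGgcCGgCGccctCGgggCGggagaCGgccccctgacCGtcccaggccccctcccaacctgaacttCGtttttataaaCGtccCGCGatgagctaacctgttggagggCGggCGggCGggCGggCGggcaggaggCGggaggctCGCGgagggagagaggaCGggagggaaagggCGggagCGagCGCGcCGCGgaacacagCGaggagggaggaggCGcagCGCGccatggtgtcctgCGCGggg
Hoxc4, chr15:103034145-103034444 (+ strand): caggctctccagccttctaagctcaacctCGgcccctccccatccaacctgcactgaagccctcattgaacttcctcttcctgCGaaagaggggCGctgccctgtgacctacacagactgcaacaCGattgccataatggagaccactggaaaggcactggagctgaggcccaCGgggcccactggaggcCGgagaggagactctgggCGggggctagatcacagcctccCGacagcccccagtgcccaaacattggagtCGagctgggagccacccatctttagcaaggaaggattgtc
Hoxd4, chr2:74721728-74722027 (+ strand): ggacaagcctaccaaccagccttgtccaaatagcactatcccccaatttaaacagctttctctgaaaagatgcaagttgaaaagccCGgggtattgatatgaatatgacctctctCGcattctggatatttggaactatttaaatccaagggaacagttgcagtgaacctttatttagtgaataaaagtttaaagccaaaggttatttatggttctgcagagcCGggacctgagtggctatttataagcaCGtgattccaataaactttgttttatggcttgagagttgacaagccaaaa

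In these windows CG occurred 4 times for Hoxa9 and 20 times for Hoxd9. Hoxa13 held 45 and Hoxd13 held 37, and Hoxc4 held 9 against 4 for Hoxd4. Neither the flagged nor the other member of a pair was always the one with more CG. RefSeq windows were matched for 22 of the 38 genes, 24 windows in all. The median number of CG was 15 over the 11 windows of genes flagged in all 8 channels (range 4 to 45) and 14 over the 13 windows of the other genes (range 4 to 37). HoxD windows had a median of 20, and all 32851 mouse windows had a median of 7. Smad proteins, which carry GDF8 signals to the nucleus, are known to bind the letters CAGAC. These letters, searched on both strands, occurred in 9 of 24 Hox windows (37.5%) and in 49.6% of all windows. A match is not a bound site, and its absence says only that the letters are not in this window.

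HoxA covers both ends of the body axis. Hoxa2, needed for the hindbrain and its neural crest, Hoxa3, needed for the thymus and parathyroid, and Hoxa4 were flagged in all 8 channels. So were Hoxa5, a regulator of lung and axial skeleton, Hoxa6 and Hoxa7. At the posterior end, Hoxa9, Hoxa10 and Hoxa11, which pattern the limb and lower trunk, and Hoxa13, which patterns the digits and the genital tract, were flagged in all 8. Of the 14 HoxA probes, the second Hoxa4 probe (A_52_P638382) was the exception, flagged on 3 GDF8 arrays and 1 untreated array. Hoxa7 was saturated on 2 GDF8 arrays and 1 untreated array, and Hoxa11 on 1 GDF8 array, so their ratios may be compressed.

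HoxB was mixed. Hoxb3, Hoxb5, Hoxb6, Hoxb7 and Hoxb9 were flagged in all 8 channels. Hoxb4, studied for its part in blood stem cell growth, was flagged on 3 GDF8 arrays and 4 untreated arrays. Hoxb2 reached 3 GDF8 and 3 untreated arrays with its better probe, and Hoxb13, known from prostate and tail development, reached 3 GDF8 and 2 untreated arrays. Hoxb8 was flagged on 0 GDF8 arrays and 1 untreated array, and Hoxb1, a hindbrain gene read from 10 spots per array, on none of either. Hoxb1 intensities were 117, 111, 110.1 and 119 in GDF8 cells of replicates 1 to 4, against 126, 107, 112 and 113 in untreated cells. Intensities here are normalised and include an added offset of 50.

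In HoxC, Hoxc4, Hoxc5, Hoxc6, Hoxc8, Hoxc9, Hoxc10 and Hoxc13 were flagged in all 8 channels. Hoxc10 is a gene of hindlimb identity, and Hoxc13 is known for its role in hair and nails. Hoxc12 was flagged on 3 GDF8 arrays and 4 untreated arrays. Hoxc9, a thoracic gene, was saturated on 2 GDF8 and 2 untreated arrays, and Hoxc6 on 1 untreated array. The single spot of Hoxc5 was marked as a non-uniform outlier on all 4 arrays and was left out, so it has no ratio in the fit. With such spots kept, an alternative chosen after this was seen, its log2 ratios were -1.03, 0.94, 0.97 and -0.64, with the sign following the dye, and the fitted ratio was 0.06 ± 0.10 (SE, n = 4 arrays; limma adjusted p = 0.918).

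HoxD stood at the other extreme. Hoxd1, Hoxd4, Hoxd8, Hoxd11 and Hoxd13 were flagged in no channel, and Hoxd13, the main digit gene of the cluster, by neither of its 2 probes. Hoxd9 came closest, with 3 GDF8 and 3 untreated arrays for its better probe (A_51_P430728). Its intensities were 239.5, 277, 205 and 231 in GDF8 cells, against 193, 280.3, 281 and 221 in untreated cells, and the ranges overlapped. Hoxd10 and Hoxd12 were each flagged on 2 GDF8 arrays and 1 untreated array, and Hoxd3 on 1 of each. The 2 Hoxd13 probes had intensities from 79.9 to 131 in GDF8 cells, against 79.7 to 157 in untreated cells. No HoxD probe met the limit for the test. With no limit on dim probes, the 12 HoxD probes had log2 ratios of GDF8 over untreated between -0.18 and 0.27. None passed (limma, smallest adjusted p = 0.551), and 0 had an unadjusted p under 0.05. Among all probes that met the limit, 12.1% had such a p in limma, so 0 of 12 says little about HoxD. At such dim signal the added offset of 50 pulls a ratio towards 0.

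The clusters also differed by another limit. With the 95th percentile of the 153 negative control spots of each channel as the limit, 14 of 14 HoxA, 12 of 15 HoxB, 9 of 9 HoxC and 1 of 12 HoxD probes passed in all 8 channels. The HoxD probe that passed in all 8 was the better Hoxd9 probe. By this limit only 3 of the 12 HoxD probes passed in no channel. Probe A_52_P209132 of Hoxd3 passed on 4 GDF8 and 3 untreated arrays, and Hoxd12 on 3 and 4. On each array this limit was higher for the untreated channel (10.2 to 27.5) than for the GDF8 channel (0.55 to 10.5). Counts by this limit therefore do not compare the conditions on equal terms. No share over all probes is given for it. By paralog number, 4 of 8 anterior genes (1 to 3), 11 of 15 central genes (4 to 8) and 8 of 15 posterior genes (9 to 13) were flagged in all 8 channels. These counts mix cluster with number. They include the 9 HoxD genes, of which 0 were flagged in all 8, and numbers 2, 5, 6 and 7 held no HoxD gene. At number 9, Hoxa9, Hoxb9 and Hoxc9 were flagged in all 8 and Hoxd9 was not. At number 13, Hoxa13 and Hoxc13 were flagged in all 8, and Hoxb13 and Hoxd13 were not.

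Detection was also counted by condition, GDF8 against untreated cells. Of the 50 probes, 41 were flagged on as many GDF8 as untreated arrays, 4 on more GDF8 arrays and 5 on fewer. The 41 include the 29 flagged in all 8 channels and the 9 flagged in none, which are equal by definition. Only probes near the limit of the flag could differ, and no share over all probes is given for this count. In GDF8 cells 29 probes were flagged on all 4 arrays, and in untreated cells 31, the difference being Hoxb4 and Hoxc12. Both were missed in 1 channel, the GDF8 channel of replicate 1, in which 63.0% of all probes were flagged. That was the lowest share of any channel. The share was 78.6%, 73.8% and 70.6% for GDF8 in replicates 2 to 4, against 71.5%, 69.2%, 66.8% and 77.1% for untreated cells in replicates 1 to 4, and on each array the Cy5 channel had the higher share. The part of the dye in these 2 calls was not tested. No Hox gene was flagged on all 4 arrays of 1 condition and on 1 or fewer of the other.

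No tested Hox probe passed the test for a change with GDF8. A probe was tested if at least 1 condition had it flagged on 4 of 4 arrays and its spots were usable. Of the 31 probes so flagged, that of Hoxc5 had no usable spot, which left 30 probes of 24 genes: 13 HoxA, 9 HoxB and 8 HoxC probes. In limma, 0 of 30 passed an adjusted p of 0.05, whereas 2.73% of the 26861 probes tested did (0.774% higher and 1.95% lower in GDF8 cells). At an unadjusted p under 0.05 the Hox count was 1 of 30 (Hoxb7), against 12.1% of all probes tested, and the methods' t-test with Benjamini-Hochberg adjustment called 0 Hox probes and 0 probes in all. The log2 ratios of GDF8 over untreated lay between -0.39 and 0.27 with a median of -0.02, where the median of all probes tested was 0.01. By sign, 12 Hox probes were above 0 and 18 below. The ranges of GDF8 and untreated intensities overlapped for all 30, as they did for 97.9% of all probes tested. In bulk RNA, a smaller share of cells using a gene and less RNA per cell cannot be told apart.

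The intervals give the size of change that the spread between arrays leaves possible. The 95% interval lay within 1.6-fold in either direction for 27 of 30 Hox probes (93.8% of all probes tested), within 1.5-fold for 25 and within 2-fold for all 30. The 3 probes whose interval reached beyond 1.6-fold were those of Hoxa2 and Hoxa5 and probe A_52_P312467 of Hoxb3. Saturation can compress the ratios of Hoxa7, Hoxa11, Hoxc6 and Hoxc9, so their intervals give no such limit. Of the 26 probes saturated on no array, 23 lay within 1.6-fold and 26 within 2-fold. With arrays 1 and 2, and 3 and 4, averaged, the numbers over the 30 were again 27 and 30. With the processed signals of the scanner software, or with the authors' deposited table, they were 26 and 28, and the intervals of Hoxa2 and of the same Hoxb3 probe then reached beyond 2-fold. They did so too without replicate 1 (25 and 28) and without replicate 2 (26 and 28). A p that misses the threshold does not show that a gene kept its level.

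**Figure D2:**
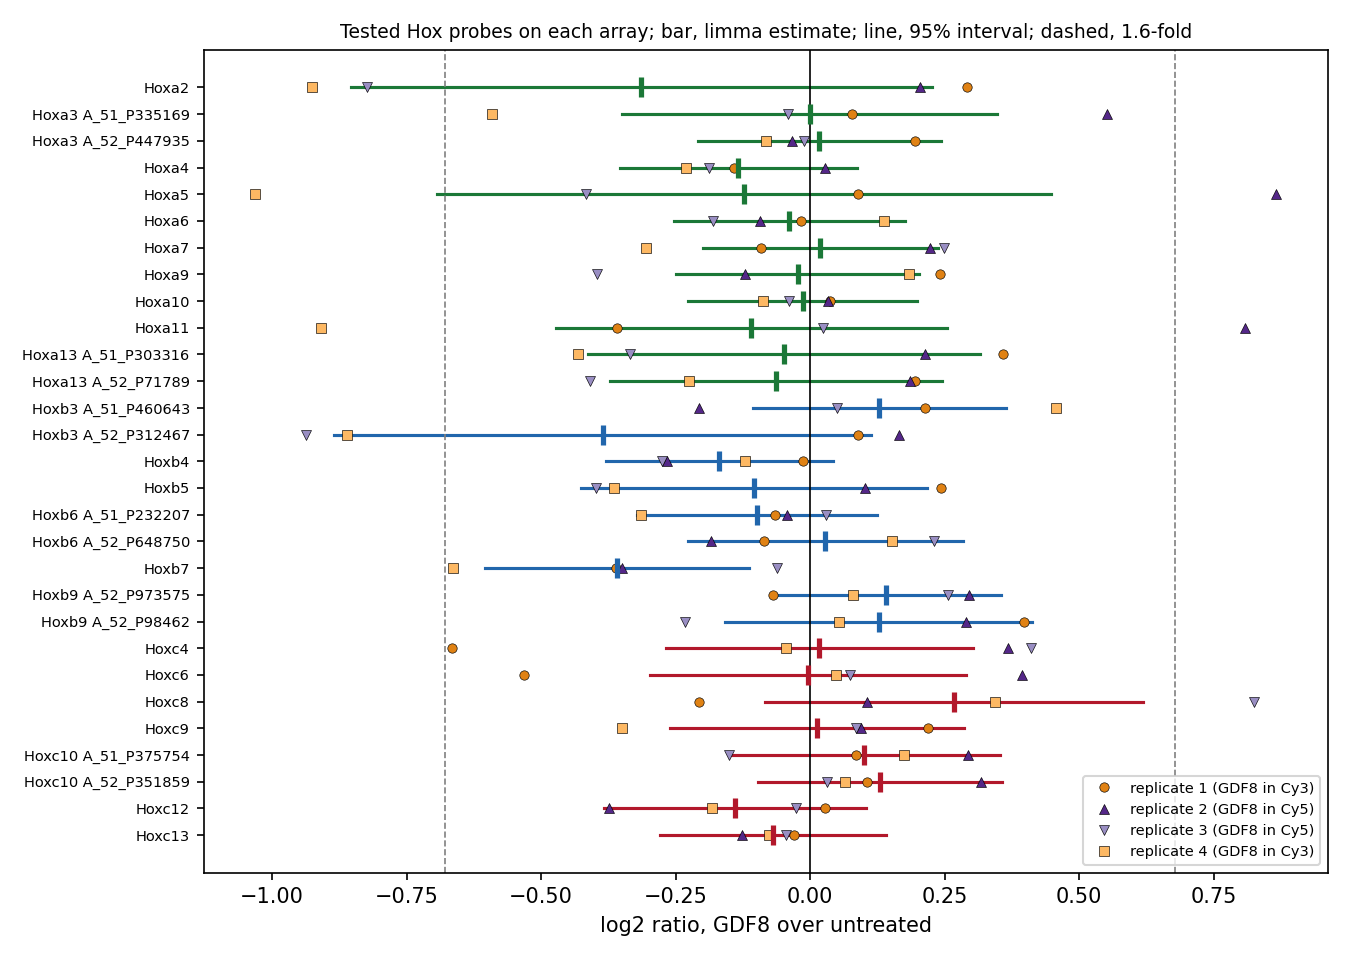
Log2 ratios of GDF8 over untreated for 29 of the 30 tested Hox probes, with a point per array, a bar at the limma estimate and a line for its 95% interval, coloured by cluster (HoxA green, HoxB blue, HoxC red). Dashed lines mark 1.6-fold. The Hoxb7 interval, -0.60 to -0.11, does not reach 0.

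Hoxb7, a thoracic gene, had the smallest p of the Hox probes. Its intensities were 4001, 3686, 3668 and 1729 in GDF8 cells of replicates 1 to 4, against 5138, 4697, 3830 and 2738 in untreated cells. The GDF8 value was the lower on each array, with log2 ratios of -0.36, -0.35, -0.06 and -0.66, though the groups' ranges overlapped. The fitted ratio was -0.36 ± 0.10 (SE, n = 4 arrays), with an adjusted p of 0.177 in limma, which misses the threshold of 0.05. The unadjusted p was 0.0105. Over the alternatives, which include leaving out each array, the ratio lay between -0.43 and -0.28.

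The ratio had the same sign on all 4 arrays for 4 of 30 Hox probes (15.4% of all probes tested), which were Hoxb4, Hoxb7 and Hoxc13 below 0 and probe A_52_P351859 of Hoxc10 above 0. Hoxb4 had intensities of 286, 285, 223 and 254 in GDF8 cells, against 289, 342, 269 and 276 in untreated cells, and a fitted log2 ratio of -0.17 ± 0.09 (SE, n = 4 arrays; limma adjusted p = 0.564). This Hoxc10 probe had 817, 1056, 942 and 794 in GDF8 cells, against 759, 847, 923 and 759 in untreated cells, with a ratio of 0.13 ± 0.10 (limma adjusted p = 0.752). In neither gene were the groups apart. The ratio of Hoxc13 was -0.07 ± 0.09.

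Hoxc8, a gene of the thoracic region, had the highest ratio over the 4 arrays. Its intensities were 1827, 1422, 1234 and 1348 in GDF8 cells, against 2109, 1321, 697 and 1062 in untreated cells. The GDF8 value was higher on 3 arrays and lower in replicate 1, and replicate 3 gave the largest log2 ratio, 0.82. The fit gave 0.27 ± 0.15 (SE, n = 4 arrays; limma adjusted p = 0.598), with a range of 0.09 to 0.45 over the alternatives. The low end came without replicate 3, where probe A_52_P98462 of Hoxb9 stood higher, at 0.26. Hoxc12 had 213, 247, 226 and 193 in GDF8 cells, against 209, 320, 230 and 219 in untreated cells. Its ratio was -0.14 ± 0.10 (limma adjusted p = 0.753), and its values overlapped.

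In HoxA the smallest p belonged to Hoxa4, whose main probe had 422, 635, 480 and 362 in GDF8 cells, against 465, 623, 547 and 425 in untreated cells. The groups overlapped, and the log2 ratio was -0.13 ± 0.09 (SE, n = 4 arrays; limma adjusted p = 0.726). Hoxa11, a gene of the middle limb segment, had 35937, 48674, 24011 and 14200.2 in GDF8 cells, against 46106, 27813, 23611 and 26663 in untreated cells. Its log2 ratios were -0.36, 0.81, 0.02 and -0.91, below 0 where GDF8 was in Cy3 and above it where GDF8 was in Cy5. Its ratio was -0.11 ± 0.15 with a dye effect of 0.53, the largest among the tested Hox probes. Further HoxA estimates were -0.12 for Hoxa5, -0.04 for Hoxa6 and 0.02 for Hoxa7.

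Genes with 2 tested probes gave a check within the gene. The 2 probes of Hoxa3, Hoxa13, Hoxb9 and Hoxc10 gave log2 ratios within 0.03 of each other. Those of Hoxa3 still differed in sign, with -0.00059 ± 0.15 for A_51_P335169 (0.08, 0.55, -0.04 and -0.59 on the 4 arrays) and 0.02 ± 0.10 for A_52_P447935 (0.20, -0.03, -0.01 and -0.08). Hoxb6, a gene of the trunk, had -0.10 ± 0.09 for A_51_P232207 (-0.07, -0.04, 0.03 and -0.31) and 0.03 ± 0.11 for A_52_P648750 (-0.09, -0.18, 0.23 and 0.15). The arrays of each of these probes lie on both sides of 0. Hoxb3, an anterior gene active in the neck, was the exception, with 0.13 ± 0.10 for probe A_51_P460643 and -0.39 ± 0.21 for probe A_52_P312467 (SE, n = 4 arrays; limma adjusted p = 0.774 and 0.588). The first had 3002, 2595, 2277 and 2407 in GDF8 cells, against 2589, 2993, 2200 and 1755 in untreated cells. The second had 1285, 1219.8, 786 and 393 in GDF8 cells, against 1208, 1088, 1504 and 714 in untreated cells. On the second probe GDF8 was slightly the higher in replicates 1 and 2 and clearly the lower in replicates 3 and 4, so the direction for Hoxb3 is not settled by these probes.

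A like split between arrays was seen in HoxA genes. Hoxa2 had 780, 836, 591 and 282 in GDF8 cells, against 637, 725, 1046 and 536 in untreated cells, giving log2 ratios of 0.29, 0.20, -0.82 and -0.93. Its fitted ratio was -0.31 ± 0.23 (SE, n = 4 arrays; limma adjusted p = 0.745). Hoxa5 had log2 ratios of 0.09, 0.87, -0.42 and -1.03. In 13 of 30 Hox probes (43.3%) both replicates 1 and 2 gave ratios above both of replicates 3 and 4, where 20.3% of all probes tested did, and 2 of 30 (6.67%) had the opposite order, where 14.4% of all probes did. Of the 13 probes, 8 were HoxA. The median HoxA ratio by array was 0.08, 0.20, -0.19 and -0.30, while the HoxB medians lay between -0.12 and -0.01 and the HoxC medians between -0.0017 and 0.20. This order of the arrays was noticed in the data and is described with no test. It was not limited to Hox genes: over 26577 probes, the difference between replicates 1 and 4 correlated with that between replicates 2 and 3 at r = 0.51, across probes, which are not independent. The ratios themselves correlated most between arrays of the same dye orientation, at 0.44 for replicates 1 and 4 and 0.45 for 2 and 3. For 1 and 2 the value was 0.18 and for 3 and 4 it was 0.10. Replicates 1 and 3 gave -0.18, and 2 and 4 gave -0.15. What sets the arrays apart was not tested. The labels do not say whether any arrays share an RNA. Arrays 1 and 2, and 3 and 4, hold both dye orientations each, and were averaged as an alternative for the case that each is a dye swap of 1 RNA pair. In that case n would be 2, and the standard errors and p-values given with n = 4 arrays would be too small. With them averaged, 0 Hox probes passed (smallest limma adjusted p = 0.392), and the calls over all probes were 224 in place of 733.

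**Figure D3:**
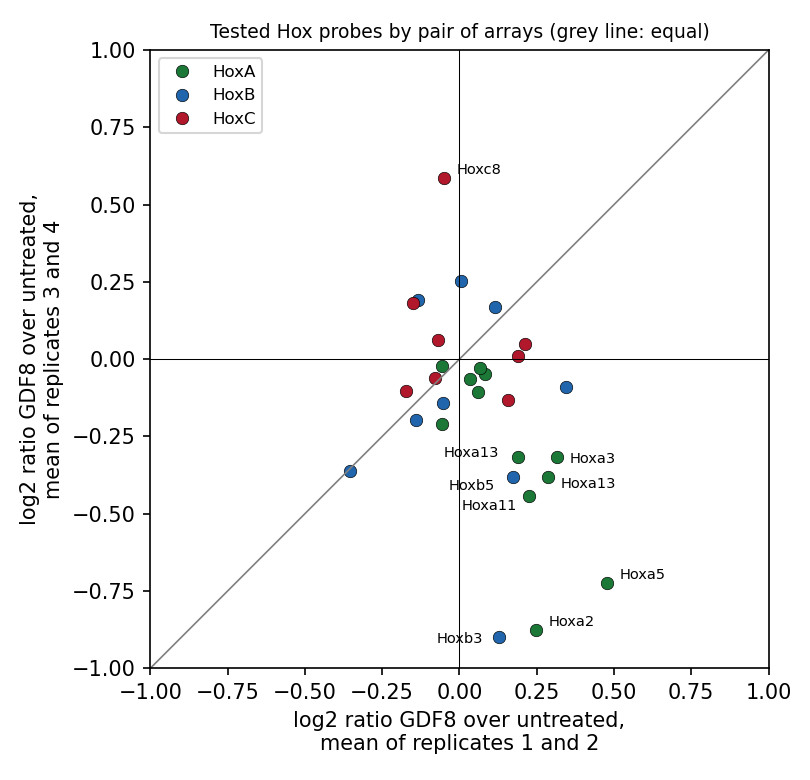
Mean log2 ratio of GDF8 over untreated on the arrays of replicates 1 and 2 (horizontal) and of replicates 3 and 4 (vertical), with a point for each of 29 of the 30 tested Hox probes. Genes are named where the means differ by over 0.5. Most HoxA points (green) lie below the grey line of equal values, and Hoxa2 had 0.29 and 0.20 on the first 2 arrays but -0.82 and -0.93 on the others.

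Genes that act with or on the Hox clusters were read through 5 lists, of which 78 genes were tested, with a median log2 ratio of 0.01. Of these, 1 fell and 0 rose at an adjusted p of 0.05 in limma, where 1.95% of all probes tested fell and 0.774% rose. At such shares lists this small would hold few calls or none, so the list counts here and below say little about these genes. The gene that fell was Rxrg, a retinoid X receptor, in the list of Cdx and retinoic acid genes (14 tested). It had 308, 295, 294 and 249 in GDF8 cells, against 621, 718, 556 and 536 in untreated cells, with no overlap. Its log2 ratio was -1.08 ± 0.10 (SE, n = 4 arrays; limma adjusted p = 0.00687), and it was well above background on 3 of the 4 GDF8 arrays. Crabp2, a retinoic acid carrier, had 0.50 ± 0.11 (limma adjusted p = 0.0760). Cdx1, Cdx2 and Cdx4, homeobox genes that act on Hox clusters in the embryo, were flagged in no channel.

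No TALE cofactor passed the test (0 of 10, median 0.06). The smallest p there were those of Pbx3, at -0.29 ± 0.10 (limma adjusted p = 0.258), and Pknox2, at 0.21 ± 0.09 (limma adjusted p = 0.443). Of the Polycomb genes 0 of 28 passed (median 0.01). Phf19, an accessory protein of the complex, had 0.42 ± 0.09 (limma adjusted p = 0.0808), and Ezh2, its methyltransferase, had 0.33 ± 0.09 (limma adjusted p = 0.148). Both were higher in GDF8 cells on all 4 arrays. Of the Trithorax group 0 of 17 passed (median -0.03), with Men1 at 0.20 and Kdm6a at -0.13.

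Genes inside or beside the clusters gave 0 of 9 past the threshold (median -0.08). Calcoco1, next to HoxC, had -0.22 ± 0.09 (limma adjusted p = 0.385). Evx2, a homeobox gene next to Hoxd13, had -0.20 ± 0.09 (limma adjusted p = 0.463). Evx2 was flagged in all 8 channels, with 4413, 3030, 5444 and 800 in GDF8 cells, against 5750, 3238, 5100 and 1069 in untreated cells. So were Lnpk and Mtx2, which flank HoxD on either side of the cluster, while 0 of 9 HoxD genes were. Evx1, beside HoxA, was flagged in no channel, the reverse of its cluster.

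**Figure D4:**
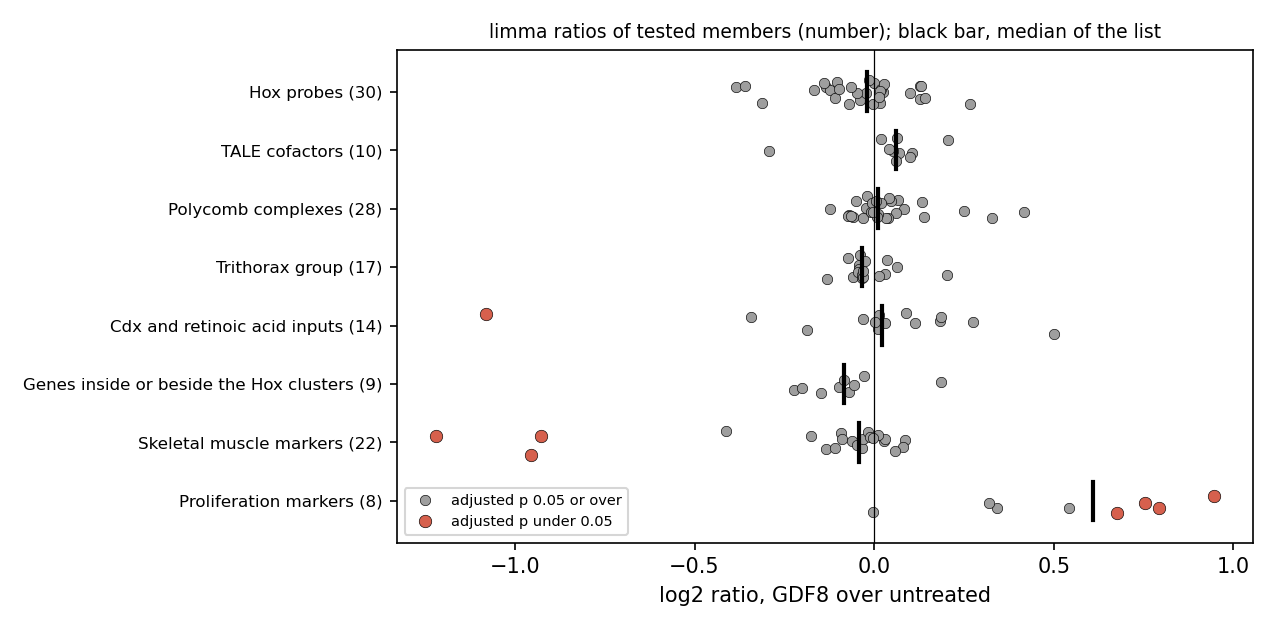
Fitted log2 ratios of GDF8 over untreated for the tested Hox probes and the tested genes of 7 lists, with the number tested in brackets, a point per probe or gene and a black bar at the median. Red points passed an adjusted p of 0.05 in limma. The Hox row holds 0 red points between -0.39 and 0.27, and the proliferation row holds 4.

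The samples carried the skeletal muscle markers of their label, and some markers of other cell types as well. All 22 skeletal muscle markers were well above background in all 8 channels, 17 of them saturated on at least 1 array. Of the 22, 3 fell in GDF8 cells in limma: Mef2c (-0.95 ± 0.11, adjusted p = 0.0119), Myh2 (-1.22 ± 0.16, adjusted p = 0.0148) and Ckm (-0.93 ± 0.17, adjusted p = 0.0423). These counts take each gene's brightest probe. The 3 that fell were saturated on no array. Saturation can compress the ratios of the 17, so the absence of a call says little for them. Dimmer probes of Ttn (A_51_P219312, -0.97, adjusted p = 0.0154) and Myh8 (A_52_P363051, -0.70, adjusted p = 0.0192) also fell in limma. Of 8 proliferation markers 4 rose by their brightest probe: Ccnb1 (0.95), Bub1 (0.79), Top2a (0.75) and Plk1 (0.68). A dimmer probe of Mki67 (A_51_P253808) also rose, by 0.80 (limma adjusted p = 0.0156), while its brightest, saturated probe gave 0.34 (limma adjusted p = 0.128). The summed level of the proliferation list was 160343 to 225943 in GDF8 arrays, against 125005 to 194490 in untreated arrays. Much of it came from Pcna, saturated on 3 GDF8 and 4 untreated arrays, and Mki67, saturated on 2 and 1. In replicate 1 these gave 70507 and 66338 in GDF8 cells, against 60295 and 59827 in untreated cells. The sums may thus be compressed and say little about the other members. The summed level of the muscle list is not given, since saturated probes fill most of it. Of the adipocyte (3), bone and cartilage (6), fibroblast and smooth muscle (6), endothelial and blood (3) and neural (3) genes tested, 0 passed. Flagged in all 8 channels were 3 of 7 adipocyte, 4 of 8 bone and cartilage, 6 of 8 fibroblast and smooth muscle and 3 of 6 neural markers. Some were bright: Col2a1 was saturated on 3 GDF8 and 3 untreated arrays, and Acta2 and Tagln on 4 of each. In the endothelial and blood list, Tek, Kdr and Cd68 were flagged in all 8 channels, and Pecam1, Ptprc and Adgre1 in none. The part of the cells' stage of differentiation in the Hox values was not tested.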

How the data were processed

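Each array compared GDF8 and untreated C2C12 RNA. Per the file headers, the deposited scanner values are intensity per spot and colour (signal and local background) and a log10 ratio, made by Agilent Feature Extraction 9.1.1.1 on design 014868. Their other deposited columns are flags. The table of log2 ratios that the authors deposited equalled, for 100% of 40929 single-spot probes within 0.001, the ratio of processed signals with GDF8 on top, uncentred (column medians 0.14, -0.09, -0.11 and 0.09). Each array had 45018 spots, and the number of arrays limits the precision. All arrays lay on 1 slide.

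Mean signals were corrected by normexp (offset 50) and normalised by loess in limma 3.58.1 under R 4.3.3, leaving out outlier spots. Spots of a probe were averaged. Log ratios were fitted by limma with GDF8 and dye terms, adjusted by Benjamini-Hochberg over 26861 probes at 0.05. The fit was tested on simulated data. Every Hox gene is named by its detection, except 1 that is not reported here and stands only in the counts. Values on all arrays are given for the 3 probes of each cluster with the smallest p and for genes whose probes differ in sign. From each list, members past the threshold, or else the 2 with the smallest p, are named. Values shown for further Hox probes were chosen after seeing them. The members and lists were chosen with earlier results of these data known. Of the Hox probes, 47 matched RefSeq by accession and 3 by symbol. The brightest probe stood for a list gene. No build is stated for the array in the sources used here.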

Additional observations from a re-analysis of the deposited data

Results flagged for a closer look

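A single value of 57 sets of 4 arrays searched stood far from the others: the log2 ratio of the muscle marker Myh2 in replicate 3, at -0.392821, where the other arrays gave -1.61, -1.43 and -1.45. Its gap to the nearest array was 0.853 of the whole range, above Dixon's 95% critical value for 4 samples. Chance alone marks about 5% of such sets. None of the Hox probes searched stood out in this way.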

How the results depend on the processing

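The count of Hox probes past the threshold was 0 under every alternative run: another offset, processed signals, median centring, Aquantile, both filters, no dye term, 1 probe per gene, the methods' t-test, the deposited table, averaged arrays, leaving out each array, and outlier spots kept. Of 502 Hox ratios so computed, 0 passed, 35 turned sign and the largest in size was 0.66. Several settings, such as averaged arrays or no dye term, cannot change a ratio in this balanced design. The deposited table and the processed signals rest on the same signals. The 502 are thus not separate checks of the sign. Without replicate 3 the sign turned for 10 of 30 probes, without replicate 4 for 9, without replicate 1 for 5 and without replicate 2 for 3. The count of Hox probes at an unadjusted p under 0.05 lay between 0 and 4. Over all probes the main count was 733. It was 429 with no dye term and 224 with arrays 1 and 2, and 3 and 4, averaged. The methods' t-test gave 358 at an unadjusted p under 0.05 with a fold over 1.6, and 0 after Benjamini-Hochberg (743 at an unadjusted p under 0.05). Leaving out an array gave 214 to 611, with 214 without replicate 2 and 271 without replicate 4. The cause was not tested, apart from the fewer samples. The 1 gene past the threshold in the Hox-related lists (Rxrg) became 0 where a probe had to be well above background in both conditions, which leaves Rxrg out, and 0 with the methods' t-test after adjustment. The number of Hox probes flagged in all 8 channels was 29, and became 33 with at least 3 of 4 arrays, 36 against negative controls and 29 to 32 on leaving out an array. The share over all probes is not given for these alternatives. Aquantile cannot change a ratio. Each ratio sets both RNAs of an array against each other, so the fit is paired within arrays. Dim signal limits the HoxD genes: with the filter, 20 of 50 Hox probes have no test, and with no filter 49 had one.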

Other observations

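Outside the 50 probes, 2 probes that RefSeq names Hoxd3os1, an antisense transcript of HoxD, were named otherwise in the scanner files. They were flagged on 0 and 1 of the 4 GDF8 arrays and on 0 of the 4 untreated arrays.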
